A study of Mus musculus with 24 samples.

Results

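PROTAC FAK degrader 1 was compared with its solvent, dimethyl sulfoxide (DMSO), in MS03 cells, an immortalized mouse Schwann cell (SC) line in which *Nf2* had been deleted by infecting *Nf2* flox/flox cells with Cre recombinase. The 3 libraries of cells given 1 µM PROTAC FAK degrader 1 for 24 hours and the 3 libraries of DMSO-treated cells were chosen by their labels, and make up 6 of the 24 libraries of the series. All 8 treatment groups, the DMSO group included, carry the *Nf2*-/- genotype, so no comparison here is between *Nf2* genotypes, and everything was measured in a single line. Defactinib, a small-molecule inhibitor of the FAK kinase, was given at the same 1 µM for 24 hours (3 libraries) and is the matched comparator below. The remaining groups received VS-4718, GSK2256098 or IN10018, which are FAK kinase inhibitors, at 1 µM, or the PROTACs GSK215 or BSJ-04-146 at 0.1 µM. RNA was poly(A)-selected and sequenced in bulk, and every gene of the count table was considered except small RNA genes.

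Focal adhesion kinase (FAK, encoded by *Ptk2*) is a cytoplasmic tyrosine kinase and scaffold that gathers at the sites where integrins hold the cell to its matrix, and passes signals from integrins and growth factor receptors to Src, ERK, PI3K and the actin cytoskeleton. A proteolysis-targeting chimera (PROTAC) is a bifunctional molecule that binds its target and recruits an E3 ubiquitin ligase to it, so that the proteasome degrades the target protein rather than only losing its kinase activity. SCs are the myelinating glia of peripheral nerves. Those that lose *Nf2*, which encodes the tumor suppressor merlin, form schwannomas, and the question put by this comparison is how the transcriptome of such cells changes when they are exposed to a FAK degrader.

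The 6 libraries held 18401466 to 27449516 counts, the treated ones (18401466 to 21588406) fewer than the DMSO ones (22952048 to 27449516). Small RNA genes took 0.145% to 0.291% of the counts of these libraries and were set aside, because *Rny3*, *Rn7s1* and *Rn7s2* were high in single libraries: *Rn7s2* had 1, 183 and 2 counts with DMSO and 1, 0 and 234 with the degrader. Of the genes left, 15790 passed the filter on low counts and were tested. Of the SC markers checked, *Sox10*, the transcription factor that sets SC identity, was present in every library, at 11.3 CPM or more. Of 7 macrophage markers, *Ptprc*, *Adgre1* and *Itgam* had at most 1 count per library, *Csf1r* had 10 to 12 counts with DMSO and 4 to 7 with the degrader, *Aif1* and *Lyz2* had at most 8, and *Cd68* had the most. Of 5 endothelial markers, *Cdh5*, *Kdr* and *Emcn* had at most 2 counts per library, and *Pecam1* and *Tek* at most 12. The fibroblast markers *Dcn*, *Lum* and *Thy1* had at most 1 count per library, but *Pdgfra* averaged 12.4 CPM with DMSO and 8.76 CPM with the degrader, and *Pdgfrb* 23.2 and 30.5 CPM. Of 5 neuron markers, *Map2* averaged 59.2 and 57 CPM, and *Rbfox3*, *Snap25*, *Syt1* and *Stmn2* had at most 3 counts per library. Summed over the 5 fibroblast markers, the level was 32.3 to 38 CPM with DMSO and 39 to 41.7 CPM with the degrader. Sums over markers use library totals alone, without TMM scaling, which would bring these groups closer. The part of other cells in the results was not tested. The labels call the libraries biological replicates without saying that they came from separate cultures, so *P* values measure the spread between these libraries. Cell number and RNA per cell were not measured, and all levels are shares of a library, given as CPM (the counts of a gene scaled to a common library total).

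PROTAC FAK degrader 1 changed most of the genes tested. With the edgeR quasi-likelihood test and Benjamini-Hochberg adjustment, 10685 of 15790 genes (67.7%) passed an adjusted *P* of 0.05. Of these, 5465 (34.6%) were higher with PROTAC FAK degrader 1 and 5220 (33.1%) were lower. A change of at least 2-fold as well as an adjusted *P* under 0.05 was found for 2240 genes (14.2%), with 1288 higher (8.16%) and 952 lower (6.03%), and at least 4-fold for 225 higher and 136 lower genes. The levels of the treated and DMSO libraries did not overlap for 11095 genes (70.3%). The median absolute log2 fold change was 0.41, against a median standard error (SE) of 0.07, so many calls rest on small changes measured precisely. Tested against a change of 1.5-fold (edgeR glmTreat), 3114 genes passed. The median of the log2 fold changes was 0.0064. With so large a share of genes called, a count of called members in a list below is read beside 34.6% higher and 33.1% lower, and the counts past 2-fold beside 8.16% and 6.03%. The 31 lists held 589 members, of which 555 were tested and 34 were not.

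**Figure D1:**
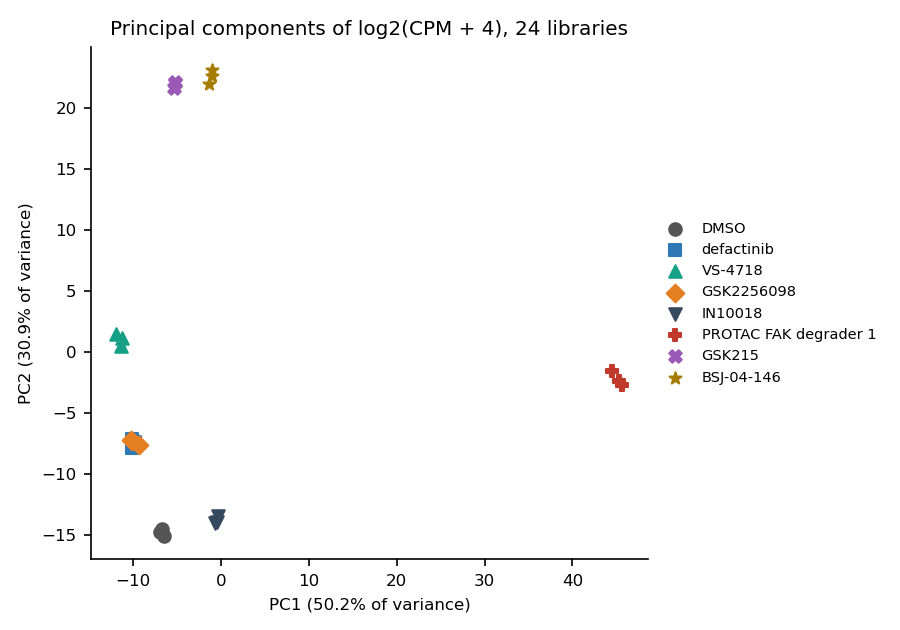
Principal components of log2(CPM + 4) over all 24 libraries, with 1 point per library and 1 symbol per treatment. On the first component (50.2% of the variance) the 3 libraries of PROTAC FAK degrader 1 lie at 44.55 to 45.68, apart from the other 21 libraries, which lie between -11.9 and -0.36.

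The gene of the drug target was examined before the others. *Ptk2* mRNA was not changed by the degrader beyond the spread of the libraries. Its level (GRCm38 chr15:73205102-73423280, minus strand, protein coding) was 93.1, 95.6 and 97.9 CPM with DMSO and 95.5, 102 and 95.8 CPM with the degrader. These ranges overlap, and the log2 fold change was 0.03 (95% interval -0.041 to 0.10, SE 0.036, adjusted *P* = 0.46). Scaled by library totals only, without TMM, it was 0.12 and passed the threshold (adjusted *P* = 0.00421). These libraries hold no measurement of FAK protein, on which a degrader acts. *Ptk2b*, which encodes the related kinase PYK2, had 0 to 3 counts per library and was not tested. *Nf2* (chr11:4765845-4849536) read 184, 180 and 179 CPM with DMSO and 179, 179 and 175 CPM with the degrader (log2 fold change -0.028, adjusted *P* = 0.469). Counts over a whole gene cannot show a deletion of some of its exons.

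*Met*, the receptor for hepatocyte growth factor, fell. It was at 239, 233 and 241 CPM with DMSO and at 92.5, 90.3 and 93.4 CPM with PROTAC FAK degrader 1, so that the lowest DMSO library was more than 2-fold above the highest treated one. The log2 fold change was -1.37 (SE 0.035, n = 3 and 3, adjusted *P* = 2.8e-33 by edgeR). With defactinib, *Met* read 232, 225 and 230 CPM, and the degrader differed from defactinib by -1.31 on the log2 scale (adjusted *P* = 1.3e-32). *Hgf*, which encodes the ligand, had 3 counts in 1 DMSO library and 0 in the other 5, and *Spint1*, which encodes an inhibitor of the proteases that activate that ligand, had 1 count in all. *Sox10* was at 19.8, 20.3 and 20.3 CPM with DMSO and 11.3, 12.4 and 12.8 CPM with the degrader, a fall of 0.73 on the log2 scale (SE 0.085, adjusted *P* = 2.1e-10). *Ephb2*, an ephrin receptor, rose by a log2 fold change of 0.17 (adjusted *P* = 0.00137). The inflammatory genes *Nlrp3* and *Il6* had at most 2 counts per library and were not tested.

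Ranked among genes with a symbol other than a clone name, at a mean of at least 5 CPM and with groups that did not overlap, the 10 largest increases included *Angptl6*, which encodes a secreted angiopoietin-like protein, and *Ddit3*, which encodes CHOP, a transcription factor of the stress response. *Angptl6* was at 2.86, 3.24 and 2.73 CPM with DMSO and at 48.8, 44.7 and 44.3 CPM with the degrader. *Ddit3* (chr10:127290774-127296288) was at 21.1, 18.9 and 19.3 CPM and then at 240, 237 and 235 CPM. The fold changes of *Angptl6* and *Ddit3* were 15.5 and 12, or 3.96 (SE 0.088) and 3.59 (SE 0.053) on the log2 scale. Among the others, with log2 fold changes of 3.02 to 3.32, were *Cabp1*, *Mxd4*, *Zfr2*, *Trp53inp1*, *Gadd45a* and *Extl1*. *Mxd4* encodes a partner of MAX that opposes MYC, and rose from 6.35, 5.05 and 5.25 CPM to 52.6, 53.2 and 56.6 CPM. *Trp53inp1* and *Gadd45a* are stress genes that p53 can induce.

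Of the 10 largest decreases ranked in the same way, the transferrin receptor gene *Tfrc*, which brings iron into the cell, was the most abundant gene. It was at 767, 769 and 764 CPM with DMSO and at 114, 120 and 123 CPM with the degrader, a 6.45-fold fall (log2 fold change -2.69, SE 0.039, adjusted *P* = 1.5e-42). *Prl2c2* had a larger log2 fold change (-3.32, SE 0.14), from 10.6, 11.1 and 11.9 CPM to 0.917, 1.3 and 1.16 CPM, but belongs to a family of near-identical genes between which reads may have been split. *Dna2*, a nuclease and helicase of DNA replication, fell 4.44-fold, from 62.7, 59.3 and 59.3 CPM to 13.4, 14 and 13.4 CPM. *Ctgf*, a matricellular protein gene and a standard target of the YAP coactivator, went from 11.9, 10.9 and 11.2 CPM to 2.48, 2.08 and 2.63 CPM (log2 fold change -2.24). *Neto2*, *Tnni2* and *Olfml2b* were also among the 10 largest decreases, with log2 fold changes of -2.36, -2.23 and -2.11. The clone-named gene 1110002E22Rik, left out of the ranking, would have come second, from 28.1, 29.6 and 28.2 CPM to 3.53, 3.8 and 4.42 CPM (log2 fold change -2.87, adjusted *P* = 2.4e-29 by edgeR).

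**Figure D2:**
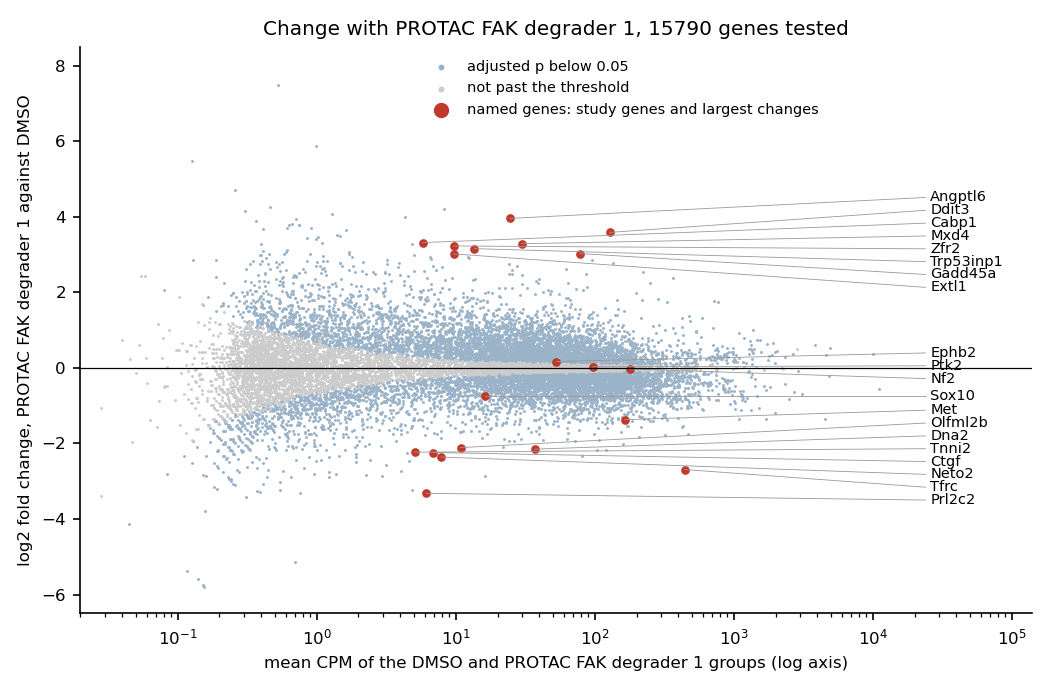
Log2 fold change of each of 15790 genes (PROTAC FAK degrader 1 against DMSO) over its mean CPM on a log axis, with 1 point per gene. Red points are the tested genes of the study and the named genes among the 10 largest changes in each direction at a mean of at least 5 CPM, from *Angptl6* at 3.96 to *Prl2c2* at -3.32.

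Genes of focal adhesion proteins went in both directions, whereas those of integrins, laminins and the matrix were mostly lower. Of 19 focal adhesion genes tested, 7 rose and 8 fell, none by 2-fold, with a median log2 fold change of -0.0012. *Vcl*, which encodes the actin linker vinculin, fell the most, from 162, 169 and 159 CPM to 102, 103 and 105 CPM (log2 fold change -0.66, adjusted *P* = 1.4e-20). The scaffold genes *Tns1*, *Nedd9* and *Lims1* rose by 0.57, 0.54 and 0.46. Of 21 integrin and laminin genes, 14 fell and 3 rose, with a median of -0.53. *Itgb1*, the beta subunit shared by the collagen, laminin and fibronectin receptors, was at 956, 926 and 971 CPM with DMSO and at 595, 606 and 583 CPM with the degrader (log2 fold change -0.68). Its alpha partners *Itgav* and *Itga3* fell by 0.98 and 0.91, and the laminin chain genes *Lama4* and *Lama2* by 0.89 and 0.82. *Lama5*, *Lamb2* and *Itga1* went the other way, with log2 fold changes of 0.14, 0.49 and 0.65.

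Of 23 collagen and matrix genes tested, 18 fell, 6 of them by at least 2-fold, and 2 rose (median -0.52). Of the 18 with a mean of at least 5 CPM, 15 fell, 3 of them by 2-fold. *Col1a2*, a chain of type I collagen, was at 1340, 1365 and 1355 CPM with DMSO and at 709, 698 and 705 CPM with the degrader (log2 fold change -0.94, SE 0.029). *Col12a1*, *Timp1*, an inhibitor of matrix proteases, and *Tnc*, the matrix glycoprotein tenascin C, fell by 1.38, 1.18 and 1.12. Fibronectin, *Fn1*, and *Timp3* were the members that rose, by 0.16 and 0.20. Of 20 target genes of YAP, a coactivator that merlin restrains, and of its partner TEAD, 13 fell and 4 rose (median -0.43). Besides *Ctgf*, *Fjx1* and *Ankrd1* fell by 1.34 and 1.26, and *Cyr61* by 0.58. *Gadd45a*, the gene with the largest rise in this list, is also induced by stress. Among 13 actin genes driven by serum response factor, 6 fell and 2 rose. *Actb*, cytoplasmic beta-actin, was at 2749, 2599 and 2859 CPM with DMSO and at 1214, 1178 and 1206 CPM with the degrader (log2 fold change -1.19, adjusted *P* = 2.6e-31), while *Tpm2*, a tropomyosin gene, rose by 1.10.

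*Met* was the only receptor tyrosine kinase gene of 15 tested to change by 2-fold, with 9 lower and 5 higher in all. *Mertk* and *Tyro3* of the TAM family fell by 0.97 and 0.80, and *Erbb2*, the neuregulin coreceptor of SCs, went from 64.5, 64.2 and 62.8 CPM to 39.4, 41.7 and 43.7 CPM (log2 fold change -0.62). Of 16 genes that report ERK signaling, 10 fell and 5 rose (median -0.25). *Spry1*, a feedback inhibitor, went from 61.1, 61.5 and 67 CPM to 25.2, 23 and 23.8 CPM (log2 fold change -1.39), and *Fosl1*, an AP-1 subunit, fell by 1.37. Members did not move together: the phosphatase gene *Dusp5* fell by 0.92 and *Dusp4* rose by 0.76, and *Fos*, at 0.565 to 0.907 CPM with DMSO, reached 5.52 to 5.78 CPM.

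Of 16 genes of SC identity and myelin, 6 rose and 4 fell, and of the 8 with a mean of at least 5 CPM, 5 rose and 2 fell. *Mbp*, a myelin protein gene, went from 15.9, 16.1 and 14.3 CPM to 29.6, 30.1 and 30.5 CPM (log2 fold change 0.96), and *Dhh* and *Foxd3* rose by 0.65 and 0.50, while *Sox10* and *Pou3f1* fell by 0.73 and 1.00. Of 13 genes of immature and repair SCs, 9 fell and 2 rose (median -0.30). The neurotrophin receptor *Ngfr* went from 9.65, 10.6 and 11.2 CPM to 4.72, 4.22 and 5.84 CPM (log2 fold change -1.09, adjusted *P* = 4.5e-13), and the progenitor factor *Sox2* fell by 0.56. *Jun*, which drives the repair state, fell by 0.30, and *Runx2* rose by 0.83. The summed level of 9 SC markers, scaled by library totals without TMM, was 69.5 to 73.4 CPM with DMSO and 82.6 to 89.2 CPM with the degrader. TMM scaling would narrow this gap. The summed level of 7 macrophage markers, also without TMM, went from 3.75 to 4.02 CPM to 11.6 to 12.5 CPM. Nearly all of it was *Cd68*, a lysosomal protein gene, with 65 to 94 counts with DMSO and 199 to 239 with the degrader.

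**Figure D3:**
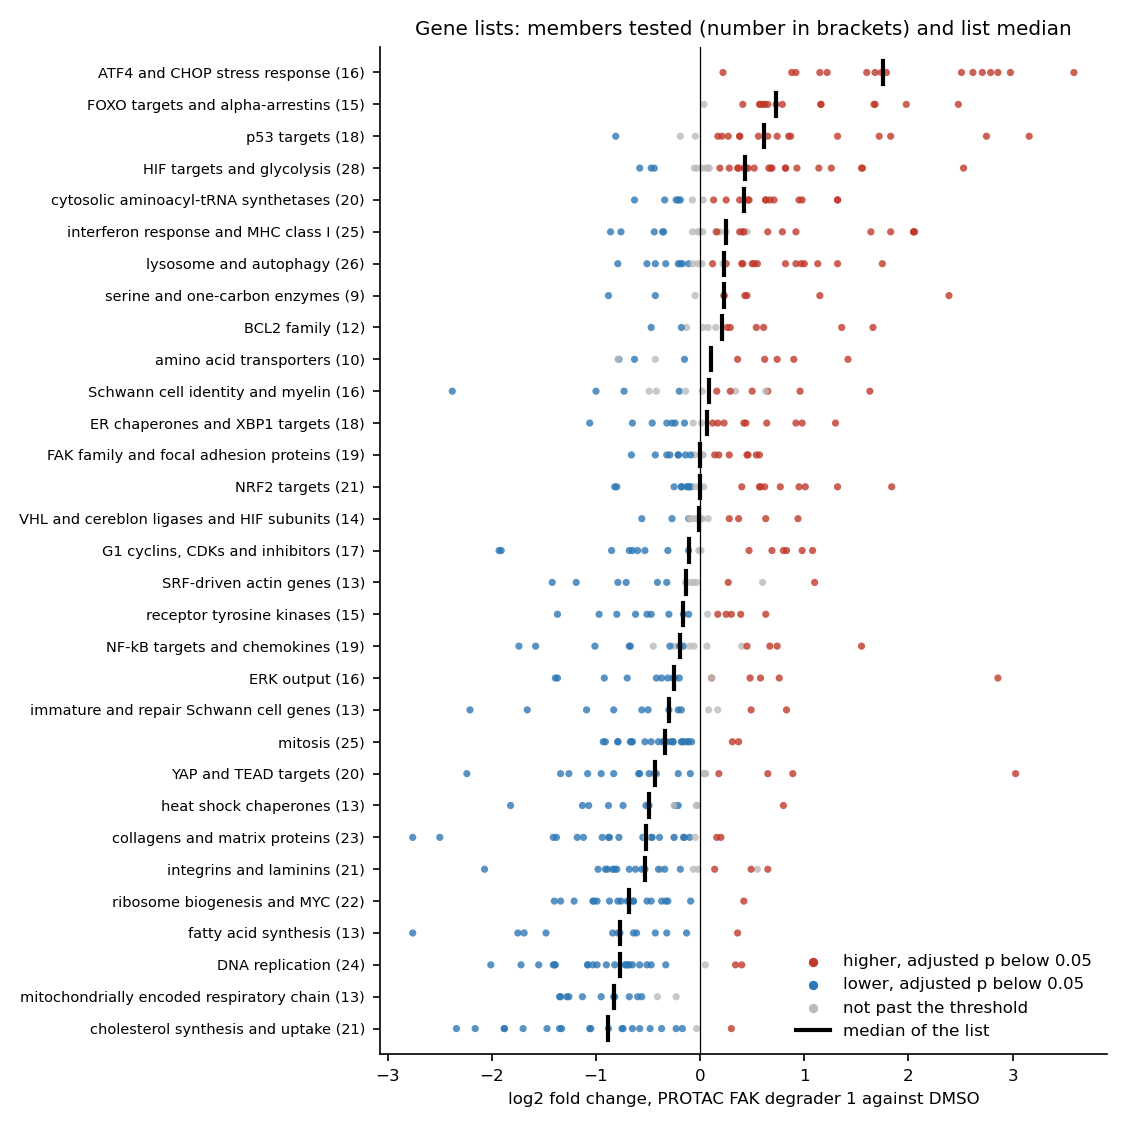
Log2 fold change (PROTAC FAK degrader 1 against DMSO) of each tested member of 31 gene lists, with the number tested in brackets and a black bar at the list's median. Medians run from 1.76 for ATF4 and CHOP genes to -0.88 for cholesterol genes.

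Of the 14 members of the list of genes run by ATF4 and CHOP with a mean of at least 5 CPM, 14 rose, 11 of them by at least 2-fold where 8.16% of all genes did, and the median log2 fold change was 1.71. The other members of this list of 16, *Fgf21* and *Gdf15*, had fewer than 10 counts in every DMSO library, below the level of the filter, and were tested because other groups passed it. With them the median was 1.76. ATF4 is the transcription factor made when phosphorylation of the initiation factor eIF2 slows translation, the integrated stress response, and it induces *Ddit3* and genes for making and importing amino acids. *Atf4* mRNA itself was at 310, 303 and 297 CPM with DMSO and at 569, 570 and 537 CPM with the degrader (log2 fold change 0.88, SE 0.031). *Trib3*, a pseudokinase that feeds back on ATF4, was at 37.3, 33.6 and 32.1 CPM and then at 245, 234 and 231 CPM (log2 fold change 2.79, adjusted *P* = 1.2e-40). *Ppp1r15a*, which encodes GADD34, the subunit that directs a phosphatase to eIF2, was at 22.7, 23.7 and 23.1 CPM and then at 179, 161 and 163 CPM (log2 fold change 2.86). The stress regulator gene *Nupr1* went from 15.8, 17.4 and 17.8 CPM to 135, 130 and 137 CPM (log2 fold change 2.98), and *Atf3* from 6.93, 7.99 and 7.1 CPM to 48.6, 51.4 and 44.6 CPM (log2 fold change 2.71). In all of these genes the treated libraries lay well above every DMSO library. The smallest rise was that of *Stc2* (0.22), and *Fgf21* and *Gdf15* had means of 0.308 and 0.124 CPM with DMSO.

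The letters TGATGNAA, a form of the composite C/EBP-ATF element that ATF4 with a C/EBP partner is known to bind, were looked for on either strand of RefSeq promoter windows of GRCm38.p6, from 250 bases before to 50 bases after the transcription start. Of the 15 members with a window, 6 held them (*Trib3*, *Asns*, *Chac1*, *Atf3*, *Nupr1* and *Fgf21*), or 40%, against 4.51% of 27025 genes in the table. This is a description of letters and not of binding, and a window without them says nothing of sites elsewhere. The 250 bases before the start are shown for 4 members that rose, 5′ to 3′ on the strand of the gene, with the match in capitals. The match starts 193 bases before the start in *Chac1*, 110 in *Nupr1* and in *Atf3*, and 23 in *Asns*, and only that of *Asns* has the letters in the forward direction.
Nupr1, chr7:126625471-126625720, minus strand: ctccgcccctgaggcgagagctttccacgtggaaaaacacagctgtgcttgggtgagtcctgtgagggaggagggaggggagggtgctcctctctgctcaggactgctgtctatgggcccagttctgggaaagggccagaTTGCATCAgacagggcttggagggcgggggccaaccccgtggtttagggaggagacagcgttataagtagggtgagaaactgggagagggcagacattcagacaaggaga
Atf3, chr1:191183334-191183583, minus strand: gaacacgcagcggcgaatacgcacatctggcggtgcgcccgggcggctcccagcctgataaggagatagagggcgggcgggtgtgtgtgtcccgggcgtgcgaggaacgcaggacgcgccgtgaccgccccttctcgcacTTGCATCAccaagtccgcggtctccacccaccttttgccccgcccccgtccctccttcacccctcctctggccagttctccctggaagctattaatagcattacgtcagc
Chac1, chr2:119350992-119351241, plus strand: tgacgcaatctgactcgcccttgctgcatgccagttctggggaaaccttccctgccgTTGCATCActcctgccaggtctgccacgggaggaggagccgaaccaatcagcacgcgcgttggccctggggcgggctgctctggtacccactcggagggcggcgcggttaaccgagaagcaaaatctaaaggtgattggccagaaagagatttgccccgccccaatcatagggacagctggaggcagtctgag
Asns, chr6:7693210-7693459, minus strand: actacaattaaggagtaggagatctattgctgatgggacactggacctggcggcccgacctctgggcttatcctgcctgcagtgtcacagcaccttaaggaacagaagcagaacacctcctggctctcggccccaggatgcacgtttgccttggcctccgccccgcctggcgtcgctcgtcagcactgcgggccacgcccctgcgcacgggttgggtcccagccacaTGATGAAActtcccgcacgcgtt

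**Figure D4:**
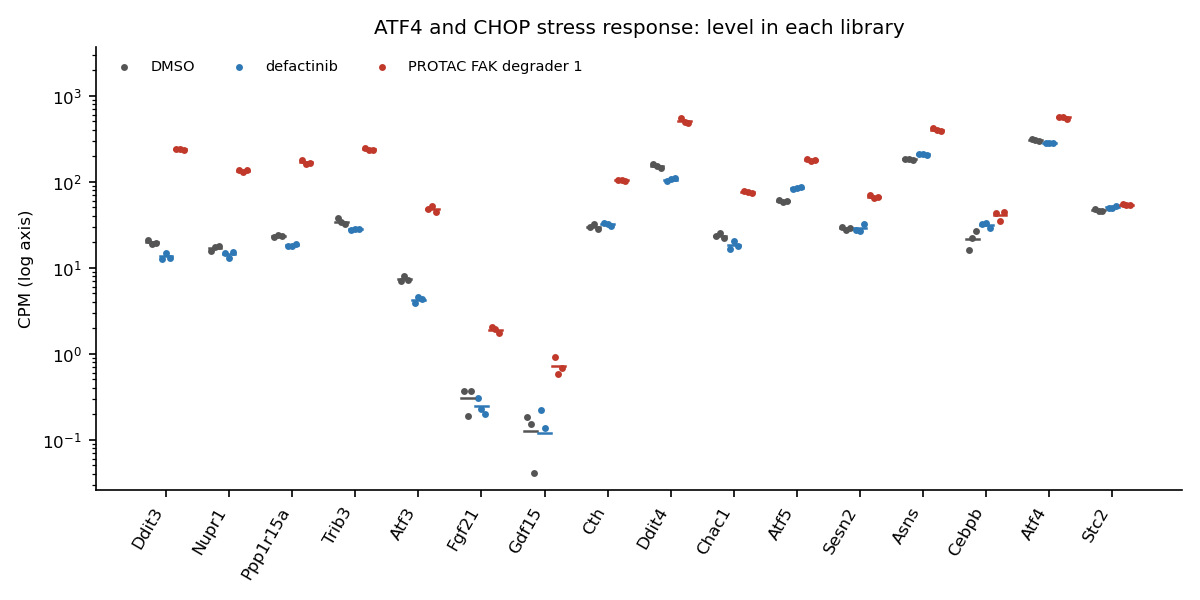
CPM, on a log axis, of the 16 ATF4 and CHOP genes in each of 3 libraries with DMSO (grey), defactinib (blue) and PROTAC FAK degrader 1 (red), with a bar at the group mean. The red points lie above the grey ones for all 16 genes, a library at 0 (*Gdf15* with defactinib) is not drawn, and *Ddit3* shows the widest gap.

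Genes of amino acid supply rose in part. Of 20 cytosolic aminoacyl-tRNA synthetases, the enzymes that load tRNAs, 13 rose and 5 fell (median 0.42). *Sars* was at 351, 330 and 334 CPM with DMSO and at 888, 834 and 812 CPM with the degrader, and *Wars*, at 126, 123 and 120 CPM, reached 310, 312 and 298 CPM, each with a log2 fold change of 1.32. *Farsa*, which encodes a subunit of the phenylalanine enzyme, fell by 0.63. Of 9 serine and one-carbon genes, 6 rose and 2 fell. The mitochondrial enzyme gene *Aldh1l2* went from 119, 118 and 112 CPM to 621, 617 and 594 CPM (log2 fold change 2.39, adjusted *P* = 1.2e-40), and *Psph*, the last step of serine synthesis, rose by 1.15, whereas the first step, *Phgdh*, had a log2 fold change of -0.048 (adjusted *P* = 0.202). Of 10 amino acid transporter genes, 5 rose, led by the glycine transporter *Slc6a9* (1.42) and the cystine transporter *Slc7a11* (0.90), and 3 fell, among them the glutamine transporters *Slc38a2* (-0.78) and *Slc1a5* (-0.63).

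Other stress pathways were mixed or lower. Of 18 genes of endoplasmic reticulum chaperones and of the unfolded protein response, 9 rose and 7 fell, with a median of 0.067. *Herpud1*, a component of ER-associated degradation, went from 39, 36.2 and 38.1 CPM to 94.1, 96.9 and 87.9 CPM (log2 fold change 1.30), *Sel1l* and *Xbp1* rose by 0.98 and 0.92, and *Hspa5*, the chaperone BiP, by 0.64, while *Dnajb11* and *Calr* fell by 1.06 and 0.65. Of 13 cytosolic and mitochondrial heat shock genes, 9 fell and 1, *Hspb1* (at 0.667 CPM with DMSO), rose (median -0.49), a call lost without DMSO replicate 3 or without degrader replicate 3. *Hsph1* was at 325, 324 and 323 CPM and then at 88.6, 96.4 and 91.3 CPM (log2 fold change -1.82), and *Hsp90aa1* fell by 1.07. Of 21 NRF2 targets, 9 rose and 9 fell. Scaled by library totals only, without TMM, 5 fell. The members that rose included *Hmox1*, heme oxygenase, from 28.6, 27.9 and 28.8 CPM to 104, 105 and 95.6 CPM (log2 fold change 1.84), *Gstm1* (1.32), and *Ftl1*, the light chain of the iron store ferritin, from 931, 898 and 907 CPM to 1867, 1834 and 1789 CPM (log2 fold change 1.01). *Gclc*, *Nqo1* and *Srxn1* did not pass the test, with log2 fold changes of -0.0029, 0.033 and -0.044.

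Of 18 p53 targets, 15 rose, 5 of them by at least 2-fold, and only *Aen* fell (median 0.61). *Trp53inp1* was at 2.49, 2.75 and 2.93 CPM and then at 20.9, 26.6 and 26 CPM (log2 fold change 3.16). *Bbc3*, which encodes the proapoptotic protein PUMA, was at 5.89, 6.63 and 6.24 CPM and then at 43.1, 42.3 and 41 CPM (log2 fold change 2.75, adjusted *P* = 1.5e-30). The cyclin-dependent kinase (CDK) inhibitor gene *Cdkn1a* (p21) went from 15.7, 16.6 and 15.7 CPM to 41.9, 38.4 and 39.7 CPM (log2 fold change 1.32), and *Mdm2*, the ligase gene that p53 induces against itself, rose by 0.38. Several of these genes are also induced without p53. In the BCL2 family, 6 of 12 genes rose and 2 fell: the BH3-only genes *Bmf* (1.66) and *Bcl2l11* (0.54) rose, and *Bak1* (-0.47) and *Mcl1* (-0.18) fell. FOXO factors are transcription factors that PI3K and AKT signaling holds in check, and the alpha-arrestin genes *Txnip* and *Arrdc4* are known to be induced by glucose. Of 15 FOXO targets and alpha-arrestins, 14 rose and none fell (median 0.73), the exception being *Trib2* at 0.037. *Txnip*, an arrestin that limits glucose uptake, went from 25.9, 26.8 and 26.1 CPM to 146, 153 and 143 CPM (log2 fold change 2.48), and *Pik3ip1*, *Arrdc4* and *Ccng2* rose by 1.98, 1.68 and 1.67.

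HIF targets rose for the most part, with no 2-fold change in a gene for a HIF subunit. Hypoxia-inducible factor (HIF), a transcription factor, switches on glycolysis and other genes when the ligase subunit VHL no longer marks it for destruction. Of 28 HIF targets and glycolysis genes, 19 rose, 5 of them by at least 2-fold, and 3 fell (median 0.43). *Ndrg1* was at 65.6, 66.6 and 65.6 CPM with DMSO and at 395, 381 and 364 CPM with the degrader, a 5.76-fold rise (log2 fold change 2.53, SE 0.037, adjusted *P* = 1.5e-42). *Car9*, a carbonic anhydrase gene, went from 27.5, 25.3 and 24.6 CPM to 77.9, 72.2 and 75.6 CPM (log2 fold change 1.55), and *Pdk1*, which closes pyruvate off from the mitochondria, from 78.4, 76.1 and 73.7 CPM to 185, 183 and 179 CPM (log2 fold change 1.26). *Vegfa* rose by 0.82. Other well-known members did not pass the test: *Ldha* had a log2 fold change of -0.028, *Hk2* of 0.014 and *Slc2a1*, the glucose transporter GLUT1, of 0.076 (adjusted *P* = 0.0613). *Adm*, *Eno1* and *Pfkfb3* fell, by 0.58, 0.47 and 0.44. Of 14 genes for HIF subunits and for the VHL and cereblon ligases, 4 rose and 3 fell, none by 2-fold. *Hif1a* had a log2 fold change of -0.03, and *Arnt*, its partner, *Crbn*, cereblon, and *Vhl* rose by 0.94, 0.63 and 0.37.

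The core of the HIF response element, ACGTG or GCGTG, occurred on either strand in the RefSeq windows of 24 of 26 of these genes (92.3%), beside 46.7% of the genes in the table, a high share because the motif is short. The letters TGACNNNGC occurred in 8 of 17 NRF2 targets with a window (47.1%), beside 14% of genes. Yet 9 members of that list rose and 9 fell, so a raised share of letters also occurred in a list of mixed direction. *Ankrd37*, which rose from 13.6, 11.6 and 11.4 CPM to 39.5, 35.4 and 32.9 CPM (log2 fold change 1.56), had 4 matches in the 250 bases before its start, 1 of them 6 bases from it. They are in capitals below, and a run of more than 5 capitals holds overlapping matches.
Ankrd37, chr8:45999851-46000100, minus strand: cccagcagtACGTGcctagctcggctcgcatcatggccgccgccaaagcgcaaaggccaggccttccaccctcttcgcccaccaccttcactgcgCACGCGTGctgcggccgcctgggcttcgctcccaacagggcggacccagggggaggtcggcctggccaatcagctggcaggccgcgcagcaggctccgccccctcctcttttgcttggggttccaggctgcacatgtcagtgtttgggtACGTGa

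Genes of DNA replication fell almost as a whole. Of 24 tested, 21 fell, 9 of them by at least 2-fold where 6.03% of all genes did, and the median was -0.77. *Rrm2*, the regulated subunit of ribonucleotide reductase, was at 258, 254 and 253 CPM with DMSO and at 62.9, 62.7 and 64.1 CPM with the degrader (log2 fold change -2.01, SE 0.032, adjusted *P* = 4.7e-41). *Cdc6*, a licensing factor gene, was at 103, 94.9 and 96.8 CPM and then at 28.3, 31.9 and 29.2 CPM (log2 fold change -1.72), and *Mcm4*, a helicase subunit gene, and *Tyms*, thymidylate synthase, fell by 1.55 and 1.41. The exceptions were *Cdt1* (0.40) and *Gins4* (0.34), which rose, and *Gins2* (0.05, adjusted *P* = 0.492). Genes of mitosis fell less: of 25, 23 fell and 2, *Ccnb2* and *Nusap1*, rose, none by 2-fold, with a median of -0.34. *Mki67*, the proliferation marker, went from 673, 679 and 649 CPM to 348, 351 and 363 CPM (log2 fold change -0.91), and *Ccna2* fell by 0.93.

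Among 17 genes of the G1 phase, 9 fell and 6 rose. The E-type cyclins *Ccne1*, from 41.4, 41.2 and 43.3 CPM to 10.6, 11.9 and 10.6 CPM, and *Ccne2* fell by 1.93 and 1.91, and cyclin D1, *Ccnd1*, by 0.68. The genes that rose were all brakes on the cycle: the CDK inhibitors *Cdkn1b* (0.98), *Cdkn2d* (0.83), *Cdkn2b* (0.80) and *Cdkn2a* (0.47) and the retinoblastoma family genes *Rb1* (1.08) and *Rbl2* (0.69). Not every brake rose, as *Cdkn2c*, a CDK inhibitor gene, and *Rbl1*, of the retinoblastoma family, were not among them. *Cdk4* had a log2 fold change of 0.0076. Of 22 genes of ribosome biogenesis and MYC, 21 fell (median -0.68) and *Myc* itself rose, from 379, 372 and 382 CPM to 517, 490 and 508 CPM (log2 fold change 0.42, adjusted *P* = 8.5e-16). The nucleolar genes *Nolc1*, from 385, 379 and 388 CPM to 148, 148 and 142 CPM, and *Nop2* fell by 1.40 and 1.34, and *Polr1b*, a subunit of RNA polymerase I, by 1.21.

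Of 21 genes of cholesterol synthesis and uptake, 19 fell, 10 of them by at least 2-fold, and only *Pmvk* rose (median -0.88, the lowest of the 31 lists). The pathway is switched on by the SREBP2 transcription factor when membrane sterol is low. *Hsd17b7*, which encodes a sterol ketone reductase of the pathway, was at 45.6, 46.1 and 46.8 CPM with DMSO and at 13.7, 12.6 and 11.2 CPM with the degrader (log2 fold change -1.88, SE 0.057, adjusted *P* = 1.8e-30). *Srebf2*, which encodes SREBP2 itself, fell by 0.37. *Soat2*, which encodes an enzyme that esterifies cholesterol for storage, rose from 3.04, 2.64 and 2.77 CPM to 22.7, 20.8 and 21.3 CPM (log2 fold change 2.94). Of 13 fatty acid genes, 12 fell and *Acss2* rose (median -0.77). Fatty acid synthase, *Fasn*, went from 711, 736 and 727 CPM to 212, 212 and 224 CPM (log2 fold change -1.75), and *Elovl6* and *Fads2* fell by 1.69 and 1.48, whereas *Scd1* fell by 0.13.

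**Figure D5:**
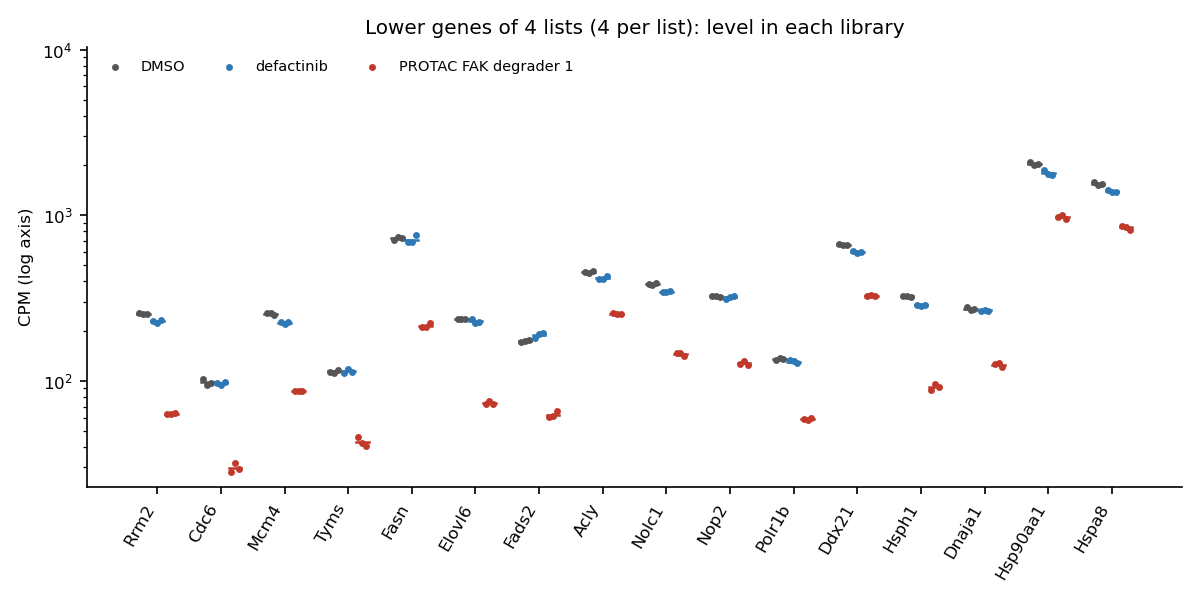
CPM, on a log axis, of 4 lower genes from each of 4 lists (DNA replication, fatty acid, ribosome biogenesis and heat shock) in each library, coloured as DMSO (grey), defactinib (blue) and PROTAC FAK degrader 1 (red), with a bar at the group mean. The red points lie below the grey and blue ones for every gene shown, as for *Rrm2* at 62.7 to 64.1 CPM.

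Transcripts encoded in the mitochondrial genome fell as well: 11 of 13 fell, 5 by at least 2-fold, and none rose (median -0.83), and the 7 with a mean of at least 5 CPM fell, 2 of them by 2-fold. *mt-Nd1* was at 6513, 6560 and 6543 CPM with DMSO and at 2638, 2532 and 2604 CPM with the degrader (log2 fold change -1.34, adjusted *P* = 1.4e-26), and *mt-Co1*, at 13291, 13196 and 13232 CPM, went to 9033, 8979 and 8968 CPM (log2 fold change -0.56). *mt-Co2*, *mt-Co3*, *mt-Atp6*, *mt-Atp8*, *mt-Nd3* and *mt-Nd4l* averaged under 5 CPM with DMSO and are uncertain, since the nuclear genome holds near-identical copies of mitochondrial sequence. Lysosome and autophagy genes went both ways, with 14 of 26 higher and 8 lower (median 0.23). The autophagy receptor gene *Sqstm1* (p62) rose from 362, 343 and 356 CPM to 1249, 1184 and 1139 CPM (log2 fold change 1.75), *Atp6v0d1*, *Gabarapl1* and *Atp6v1b2* by 1.32, 1.13 and 1.00, and *Lamp1* fell by 0.79.

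Inflammatory and interferon genes went in both directions. Of 19 NF-kB targets and chemokines, 8 fell, 4 rose and 7 were not called, with a median of -0.19. *Ccl2*, the monocyte chemoattractant, was at 27.2, 26.2 and 27.9 CPM with DMSO and at 8.81, 8.76 and 9.57 CPM with the degrader (log2 fold change -1.58, adjusted *P* = 2.0e-23). *Csf1*, the macrophage growth factor, was at 462, 459 and 464 CPM and then at 228, 227 and 231 CPM (log2 fold change -1.01). *Nfkbia*, the inhibitor that NF-kB induces, fell by 0.68, while *Cxcl10* and *Ccl5* rose by 0.74 and 1.55, the latter from under 2 CPM. Of 25 interferon response and MHC class I genes, 12 rose and 5 fell (median 0.25), and of the 14 with a mean of at least 5 CPM, 6 rose and 5 fell. The antigen presentation genes divided: *Tap1*, the peptide transporter, rose from 2.63, 3.73 and 3.43 CPM to 13.3, 9.64 and 12 CPM (log2 fold change 1.83), whereas *H2-K1* and *Tapbp* fell by 0.86 and 0.76. Reads of *H2-K1* and *H2-D1* may be shared between these near-identical genes.

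PROTAC FAK degrader 1 and defactinib were given at the same dose. Tested directly, without the DMSO libraries in the contrast, the libraries of the degrader and of defactinib differed in 10996 genes (69.6%), with 5572 higher (35.3%) and 5424 lower (34.4%) with the degrader. A difference of at least 2-fold was called for 2524 genes (16%), 1322 higher (8.37%) and 1202 lower (7.61%). Of the 10685 genes called against DMSO, 9540 were also called against defactinib in the same direction, 1087 were not called against it and 58 were called the opposite way. DMSO libraries enter only the former comparison, but the degrader libraries enter both, so these counts are not independent. The difference was largest for *Soat2*, at 0.919, 0.73 and 0.789 CPM with defactinib (log2 difference 4.72, SE 0.14), then for *Angptl6* (4.44) and *Ddit3* (4.14), with *Atf3* (3.50) also among the 5 largest. The 5 largest negative differences included those of *Prl2c2* (-3.66), *Olfml2b* (-2.83), *Tfrc* (-2.69) and *Neto2* (-2.45), with clone names again left out (1110002E22Rik, -2.59).

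Of the 14 ATF4 and CHOP genes with a mean of at least 5 CPM, 13 were higher with the degrader than with defactinib, *Stc2* being the exception (0.10, adjusted *P* = 0.059). Of 24 DNA replication genes, 21 were lower with the degrader (median -0.66), as were 18 of 21 cholesterol genes (-0.80), 12 of 13 fatty acid genes (-0.74), 20 of 22 genes of ribosome biogenesis (-0.60) and 12 of 13 mitochondrial transcripts (-1.17). Integrin and laminin genes were lower in 17 of 21 cases (-0.80) and collagen and matrix genes in 20 of 23 (-0.93). HIF targets were higher in 23 of 28 cases (0.56), including *Ldha* (0.25) and *Slc2a1* (0.21), which had not passed the test against DMSO.

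For the ATF4 and CHOP genes, the median log2 fold change against the same DMSO libraries was -0.18 with defactinib, -0.95 with VS-4718, -0.62 with GSK2256098 and 0.42 with IN10018, all at 1 µM, and -1.13 with GSK215 and -0.96 with BSJ-04-146 at 0.1 µM, against 1.76 with PROTAC FAK degrader 1. *Ddit3* averaged 13.5 CPM with defactinib, 8.63 with VS-4718, 13.3 with GSK2256098, 29.4 with IN10018, 10.8 with GSK215 and 12.2 with BSJ-04-146. For HIF targets, the medians were 0.43 with PROTAC FAK degrader 1 and 0.35 with IN10018, and from -0.73 to -0.14 with the other 5 drugs, and *Ndrg1* averaged 126 CPM with IN10018. *Sox10*, lower with PROTAC FAK degrader 1, averaged 97.8 CPM with GSK215 and 97.6 CPM with BSJ-04-146. Genes of ribosome biogenesis had medians of -0.57 with GSK215, -0.56 with BSJ-04-146 and -0.68 with PROTAC FAK degrader 1. Those of cholesterol genes were -0.73, -0.046 and -0.88 in the same order, and those of mitochondrial transcripts 0.57, 0.34 and -0.83. Since the doses of the PROTACs differ, these values are set side by side without a test, and all of them share the 3 DMSO libraries.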

How the data were processed

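RNA was measured in 24 bulk poly(A)-selected libraries of MS03 cells, of which the 3 of PROTAC FAK degrader 1 and the 3 of DMSO are compared here, with the 3 of defactinib beside them. For 49315 genes, the authors deposited unnormalized counts of the reads on each Ensembl gene. The submitters' processing notes name Trimmomatic 0.36, STAR 2.5.2b, featureCounts, Subread 1.5.2 and GRCm38. The strand setting is not given in the sources used here, so overlapping and near-identical genes are uncertain. Columns were assigned to libraries by the library numbers in the labels, and 0 value columns were left unused.

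Gene positions came from GENCODE M21, which held 49056 of the identifiers, and promoter windows from RefSeq (GRCm38.p6). In these counts, 5759 small RNA genes were set aside by symbol or biotype. The fit was made with edgeR 4.0.16 in R 4.3.3: filterByExpr, TMM scaling, and glmQLFit and glmQLFTest with 1 coefficient for each of the 8 groups (16 residual degrees of freedom). Two-sided *P* values received a Benjamini-Hochberg adjustment across all 15790 tested genes, and 0.05 was the threshold. The SE is the size of the log2 fold change over the square root of its F statistic. CPM, the counts of a gene scaled to a common library total, use TMM-scaled totals. The sums over cell type markers are the exception, and use library totals without TMM. Total counts were 18401466 to 27449516 per library, and replicates differed by more than counting noise (chi-square divided by its degrees of freedom, 1.88 to 6.11 in the groups compared), so none was counted as a copy. In simulated counts for the comparison with DMSO over 15790 genes, 150 of 200 changed genes were recovered with 10 false calls. Only those 200 genes were changed, whereas 67.7% of genes were called in the data, so the simulation does not cover so broad a change.

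Genes named were the genes of the study, the 10 largest changes in each direction, the 5 largest differences from defactinib in each direction and up to 4 called members per list, at a mean of at least 5 CPM and, for the largest, with groups that did not overlap and no clone name such as one ending in Rik, plus members needed to show what did not follow. Some items are not reported here. Members and lists were chosen with earlier results of these data known, so list counts are descriptions. Alternatives were library totals alone, no filter, a replicate block, small RNA genes kept, libraries thinned to the smallest total, the 6 libraries of a comparison alone, each replicate left out, a test against 1.5-fold (glmTreat), limma-trend (limma 3.58.1) on log2(CPM + 4), and DESeq2 1.42.0. Counts over list members with a mean of at least 5 CPM were added after seeing the data.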

Additional observations from a re-analysis of the deposited data

Results flagged for a closer look

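Of the 148 genes that the naming rule gave, 47 passed the edgeR test against DMSO in opposite directions with the degrader and with defactinib. Both drugs were at 1 µM, and 19 of these genes were higher with the degrader and 28 lower. The direct test of the difference between the drugs also passed for each. That nearly always follows from how the genes were chosen, and is no separate support. Many named genes were chosen for large changes, and the share of all genes tested with such opposite calls is not given here. The genes higher with the degrader and lower with defactinib had log2 differences of 4.72 for *Soat2*, 4.44 for *Angptl6*, 4.14 for *Ddit3*, 3.50 for *Atf3* and 3.34 for *Gadd45a*, then 3.23 for *Nupr1*, 3.21 for *Ppp1r15a*, 3.08 for *Trib3*, 3.07 for *Ndrg1*, 2.20 for *Eda2r*, 2.00 for *Cdkn1a* and 1.91 for *Sqstm1*. Smaller differences of this kind were 1.35 for *Gabarapl1*, 1.15 for *Ftl1*, 1.11 for *Atp6v1b2*, 0.92 for *Dusp4*, 0.83 for *Crbn*, 0.71 for *Bnip3l* and 0.59 for *Vhl*. The genes lower with the degrader and higher with defactinib had log2 differences of -3.66 for *Prl2c2*, -2.83 for *Olfml2b* and -1.29 for *Sox10*. Among cell cycle and lipid genes they were -2.28 for *Ccne1*, -2.03 for *Ccne2*, -1.03 for *Mki67*, -2.0 for *Hsd17b7* and -1.60 for *Fads2*. Among adhesion, matrix and actin genes they were -1.21 for *Itgav*, -1.10 for *Itga3*, -1.50 for *Lama4*, -1.61 for *Col12a1*, -1.51 for *Tnc* and -1.02 for *Flna*, and among receptor and SC genes -1.17 for *Mertk*, -1.05 for *Tyro3*, -0.77 for *Erbb2*, -1.74 for *Ngfr* and -0.72 for *Sox2*. The mitochondrial transcripts *mt-Nd2*, *mt-Nd1*, *mt-Nd6* and *mt-Nd5* had log2 differences of -1.67, -1.61, -1.27 and -1.17. The remaining ones were -1.74 for *Ccl2*, -1.25 for *Csf1*, -1.05 for *Tapbp*, -1.29 for *Dnajb11* and -0.95 for *Slc38a2*. *Sox10* was at 27.3, 30.5 and 31 CPM with defactinib, above every DMSO library (19.8 to 20.3 CPM), and at 11.3 to 12.8 CPM with the degrader, below every DMSO library. The genes were named by the rule given under the processing, and 3 libraries per group stand behind each value.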

How the results depend on the processing

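The counts of called genes and list members moved by less than 1.5 times in 1909 of 1944 alternative values. With the replicate number as a block (replicate block), 10634 genes were called against DMSO, and the block changed no call of a named gene. The numbers do not pair these samples, as same-numbered degrader and DMSO libraries deviated together with correlations of 0.0639, 0.0107 and 0.0469. Counting only list members with a mean of at least 5 CPM, chosen after seeing the data, gave 2 SC identity genes lower, 0 heat shock genes higher, 6 interferon genes higher and 7 mitochondrial transcripts lower than with DMSO. Leaving out each replicate in turn gave 10169 to 10332 genes called against DMSO.

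Tested against 1.5-fold (glmTreat), 3114 genes were called against DMSO, 1731 higher and 1383 lower, and 3486 against defactinib, 1824 higher and 1662 lower. With limma-trend on log2(CPM + 4), the genes past 2-fold against DMSO were 327 higher and 252 lower, and against defactinib 349 higher and 301 lower, since the added constant shrinks the fold changes of low genes. With library totals alone, the median of all genes moved from 0.0064 to 0.091, *Ptk2* passed the threshold (0.12), *Nf2* turned from -0.028 to 0.058 without passing it, and 5 NRF2 targets fell in place of 9. Against defactinib, library totals gave 2 integrin or laminin genes higher, 1 p53 target lower, 2 VHL, cereblon and HIF genes lower and 2 cholesterol genes higher. No filter on low counts, or the 6 libraries alone, gave 1 lower FOXO target against defactinib in place of 0. Thinning gave 3 higher SC identity genes and 1 lower p53 target against defactinib, and DESeq2 also gave 1 lower p53 target. Leaving out 1 replicate at a time, the ranges were 0 to 1 for heat shock genes higher than DMSO, and against defactinib 0 to 1 for receptor tyrosine kinases higher, 3 to 6 for SC identity genes higher, 1 to 2 for p53 targets lower, 1 to 2 for cholesterol genes higher and 0 to 1 for FOXO targets lower. The causes of these small shifts were not tested. The lower totals of the treated libraries limit what can be said of genes under 1 CPM.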
